A study of Homo sapiens with 12 samples.

Results

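ZEB1, ZEB2, QKI, CFL2 and RECK, 5 genes known as targets of the miR-200 family of microRNAs, were followed through 3 knockouts in HCT116 cells that the study ties to Argonaute phosphorylation. They were taken by gene symbol, and all 5 of the 5 were among the 12756 genes listed in each of the 3 tables of fold changes. Polyadenylated RNA had been sequenced from HCT116, an established human colorectal carcinoma line obtained from ATCC, in 4 groups of 3 labelled libraries harvested 48 hours after seeding. The groups were a knockout of AGO2 (AGO2_KO), a knockout of ANKRD52 (ANKRD52_KO), a double knockout of both ANKRD52 and CSNK1A1 (ANKRD52;CSNK1A1_KO) and the parental line, with no other agent or allele in the labels. AGO2 is an Argonaute, the protein that a microRNA guides to its messages. ANKRD52 belongs to the PP6 phosphatase complex as a regulatory subunit, and CSNK1A1 is a casein kinase. The labels do not say whether a knockout was 1 clone or whether replicates were separate cultures, so the spread behind each p-value is that of the sequenced libraries and may be technical. Values are the authors' fold changes over the parental line and an implied level per group. Per-library values and read totals were not used here, so no spread over samples can be shown and library depth is unknown. In such bulk RNA, fewer cells that make a message and less of it per cell cannot be told apart.

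The miR-200 family is abundant in epithelial cells and holds down messages that favour a mesenchymal state. Its best known targets are the transcription factors ZEB1 and ZEB2, which repress epithelial genes and the miR-200 genes themselves, so that the microRNAs and the ZEB factors restrain each other. QKI is an RNA-binding protein that controls splicing and circular RNA formation, CFL2 is the muscle form of the actin-severing protein cofilin, and RECK is a membrane-anchored inhibitor of matrix metalloproteinases. A microRNA finds its target mainly through its seed, the bases 2 to 8 from its 5′ end, which pair with a complementary stretch in the 3′ UTR. Argonaute, bound to that microRNA, then lowers the stability and translation of the message.

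The 5 family members are shown first because their seeds define the sites searched for in the targets. Mature sequences are from RefSeq (GRCh38.p14), written 5′ to 3′ with the seed in capitals, and fall into 2 seed groups that differ at 1 base, called here the miR-200b group (miR-200b, miR-200c and miR-429) and the miR-200a group (miR-200a and miR-141).
hsa-miR-200b-3p: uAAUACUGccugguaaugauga
hsa-miR-200c-3p: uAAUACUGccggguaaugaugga
hsa-miR-429: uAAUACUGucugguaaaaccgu
hsa-miR-200a-3p: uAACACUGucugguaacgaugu
hsa-miR-141-3p: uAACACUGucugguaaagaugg
The genes of miR-200b, miR-200a and miR-429 lie together on chromosome 1, and those of miR-200c and miR-141 lie together on chromosome 12. The levels of these microRNAs themselves were not analysed here.

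The match to the miR-200b group's seed is CAGTATT and the match to the miR-200a group's seed is CAGTGTT, and both were searched on the sense strand of the longest 3′ UTR that GENCODE release 29 gives each gene. Together the 5 targets held 29 matches, 19 to the miR-200b group and 10 to the miR-200a group. Of these, 12 and 5 were followed by an A, the form of site that is known to be repressed most strongly. ZEB1 had 6 and 3 matches in 2549 bases, and ZEB2 had 5 and 4 in 5370 bases. QKI had 3 and 2 in 7886 bases, CFL2 had 3 and 1 in 6096 bases, and RECK had 2 matches in 1406 bases, both to the miR-200b group. The shortest annotated 3′ UTRs of ZEB2 (134 bases) and QKI (57 bases) held 0 matches. Those of ZEB1 (1938 bases) and CFL2 (2478 bases) held 5 and 3, and 1 and 1. Which forms these cells make was not examined. Over the 11962 genes with a 3′ UTR of at least 50 bases, 19.8% held a miR-200b group match and 21.95% a miR-200a group match. Only 6 of those genes, ZEB1 and ZEB2 among them, held 9 or more matches to both seeds together, and 3, counting ZEB1 itself, held as many miR-200b group matches as ZEB1. The ZEB1 matches were also dense, at 3.53 per kilobase, against 1.68 in ZEB2, 1.42 in RECK, 0.66 in CFL2 and 0.63 in QKI.

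**Figure D1:**
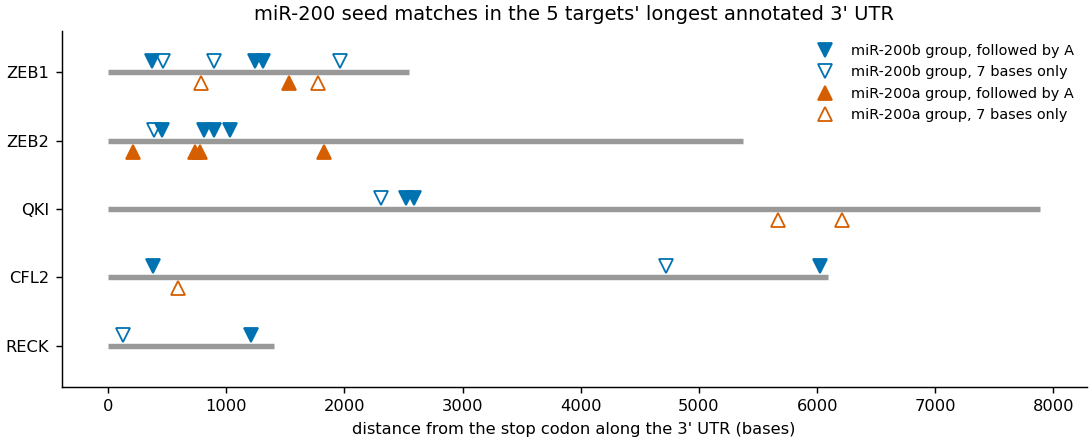
Positions of miR-200 seed matches (triangles; blue for the miR-200b group, orange for the miR-200a group; filled where an A follows) along the longest annotated 3′ UTR of each of the 5 targets (grey bars), in bases from the stop codon. The 9 matches of ZEB2 lie in the stretch from base 208 to base 1831 of 5370, whereas those of CFL2 are spread from base 382 to base 6032 of 6096.

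The sites below carry a miR-200b group match, in capitals, and are shown because they are the sequences the 5 targets share. Coordinates are those of the match. Each has 20 bases before the match and 3 after it and is read 5′ to 3′ on the gene's own strand in GENCODE transcripts (GRCh38, whereas the submitters' processing notes name hg19).
ZEB1, chr10:31527633-31527639, plus strand: ctggcattgttttatcttatCAGTATTatc
ZEB1, chr10:31528507-31528513, plus strand: attagctgatttttacctatCAGTATTatt
ZEB1, chr10:31528577-31528583, plus strand: ctgtatgtcttcaaacctggCAGTATTaat
ZEB2, chr2:144389053-144389059, minus strand: gtgcccgcactaccatacatCAGTATTttt
ZEB2, chr2:144388990-144388996, minus strand: gtgctcgcactacaatgcatCAGTATTatg
QKI, chr6:163573234-163573240, plus strand: tctctgaatgccttggttctCAGTATTatc
QKI, chr6:163573302-163573308, plus strand: ttttaagactttttttctgaCAGTATTatg
CFL2, chr14:34712477-34712483, minus strand: gtcagatggtcaacttttttCAGTATTatt
RECK, chr9:36124252-36124258, plus strand: ttttacatgaagtattttttCAGTATTata
The ZEB2 pair begins 63 bases apart, and its windows were identical at 25 of 30 positions, 17 of them among the 20 bases before the match. Of the 406 pairs of windows compared, the next closest was identical at 21 positions. In QKI the shown sites begin 68 bases apart and in ZEB1 the later pair begins 70 bases apart.

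In the ANKRD52 knockout all 5 targets rose in the authors' deposited table, from 1.32-fold for CFL2 to 6.85-fold for ZEB1, and 28.3-fold for ZEB2. ZEB2 is listed through its level in that knockout and so had to be higher there. In the AGO2 knockout ZEB1 and QKI rose, 2.998-fold and 1.47-fold. In the double knockout only CFL2 was called, and it fell. Of all genes, 13.7% were called in the ANKRD52 knockout and 7.62% were called higher and 6.04% lower, 6.10% in the AGO2 knockout with 3.38% higher and 2.72% lower, and 43.0% in the double knockout with 22.9% higher and 20.1% lower, so the counts of the double knockout lie against a high background. The 5 genes were chosen with these results known, and their number called is a description.

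**Figure D2:**
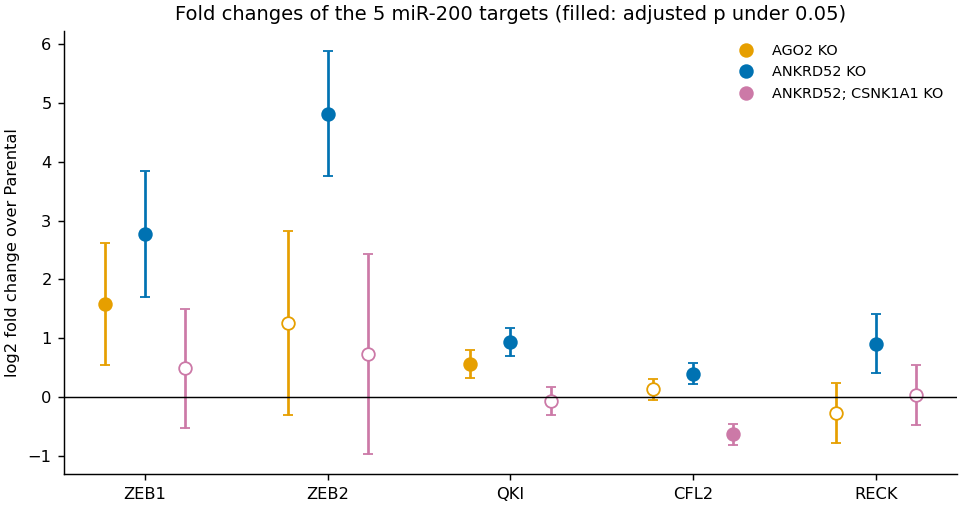
Log2 fold change over the parental line (y axis) of the 5 targets in the AGO2 (orange), ANKRD52 (blue) and double knockout (pink), from the authors' tables, with approximate 95% intervals rebuilt from the likelihood ratio. Filled points passed an adjusted p of 0.05, and the ANKRD52 knockout is the highest of the 3 for each gene.

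ZEB1, the repressor of E-cadherin, had an implied level of 15.2 CPM in the AGO2 knockout, 34.8 CPM in the ANKRD52 knockout and 7.12 CPM in the double knockout, against 5.08 CPM in the parental line. An implied level is the CPM (counts scaled to library size) a group must have had to give the deposited mean and the 3 fold changes, with the 4 groups taken as equal in size. In the authors' deposited table ZEB1 rose by 1.58 on the log2 scale in the AGO2 knockout (approximate standard error 0.53, adjusted p = 0.0465). In the ANKRD52 knockout the authors' deposited table gave 2.78 (approximate standard error 0.55, adjusted p = 3.43e-05), the 29th highest of 12756 fold changes. In the double knockout it gave 0.49 (approximate standard error 0.52, adjusted p = 0.463). ZEB1 is a noisy gene in these libraries. Its approximate standard error was wider than that of 98.8% of 500 genes of like mean level in each comparison, where the median was 0.15.

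ZEB2, the partner repressor of ZEB1, was close to the limit of detection outside the ANKRD52 knockout. Its implied level was 0.129 CPM in the AGO2 knockout, 1.51 CPM in the ANKRD52 knockout and 0.0892 CPM in the double knockout, against 0.0536 CPM in the parental line. The parental level would be about 1.62 reads in each library, if 1 read is worth 0.0306 CPM as genes without reads in 3 groups imply. The authors' deposited table put the fold change in the ANKRD52 knockout at 4.82 on the log2 scale (approximate standard error 0.54, adjusted p = 1.82e-15), the 6th highest of all genes and the 4th smallest p. Values of 1.26 in the AGO2 knockout (approximate standard error 0.80, adjusted p = 0.364) and 0.74 in the double knockout (approximate standard error 0.87, adjusted p = 0.514) in the authors' deposited tables did not pass. ZEB2 has the 2nd lowest mean of the 12756 genes. Only 5 listed genes have no group at or above an implied 1 CPM, so ZEB2 is in the tables through its level in the ANKRD52 knockout, and a gene listed in that way had to differ. The size of its fold rests on a few parental reads.

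QKI, the splicing regulator, had implied levels of 67.2 CPM in the AGO2 knockout, 87.4 CPM in the ANKRD52 knockout and 43.5 CPM in the double knockout, against 45.6 CPM in the parental line. It rose by 0.56 on the log2 scale in the AGO2 knockout (approximate standard error 0.12, adjusted p = 0.000521) and by 0.94 in the ANKRD52 knockout (approximate standard error 0.12, adjusted p = 5.11e-12) in the authors' deposited tables. By p the value in the ANKRD52 knockout is the 13th gene of 12756, although 233 genes had a higher fold change. The double knockout stood at -0.07 (approximate 95% interval -0.30 to 0.17, adjusted p = 0.675) in the authors' deposited table. QKI and CFL2 are the well measured members of the group, with approximate standard errors of 0.12 and 0.09.

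CFL2, the actin-severing cofilin, had implied levels of 100.1 CPM in the AGO2 knockout, 120.7 CPM in the ANKRD52 knockout and 58.9 CPM in the double knockout, against 91.6 CPM in the parental line. It rose by 0.40 on the log2 scale in the ANKRD52 knockout (approximate standard error 0.09, adjusted p = 0.000588) and fell by 0.64 in the double knockout (approximate standard error 0.09, adjusted p = 1.75e-10), per the authors' deposited tables. It was the only one of the 5 called in opposite directions. In the AGO2 knockout it stood at 0.13 (approximate 95% interval -0.05 to 0.31, adjusted p = 0.440) in the authors' deposited table.

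RECK, the metalloproteinase inhibitor, had implied levels of 4.16 CPM in the AGO2 knockout, 9.40 CPM in the ANKRD52 knockout and 5.14 CPM in the double knockout, against 5.03 CPM in the parental line. It rose by 0.90 on the log2 scale in the ANKRD52 knockout (approximate standard error 0.26, adjusted p = 0.00701) in the authors' deposited table. The AGO2 knockout was at -0.27 (approximate 95% interval -0.78 to 0.24, adjusted p = 0.581) and the double knockout at 0.03 (approximate 95% interval -0.47 to 0.54, adjusted p = 0.931) in the authors' deposited tables. RECK was thus the only one of the 5 with a value below 0 in the AGO2 knockout.

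**Figure D3:**
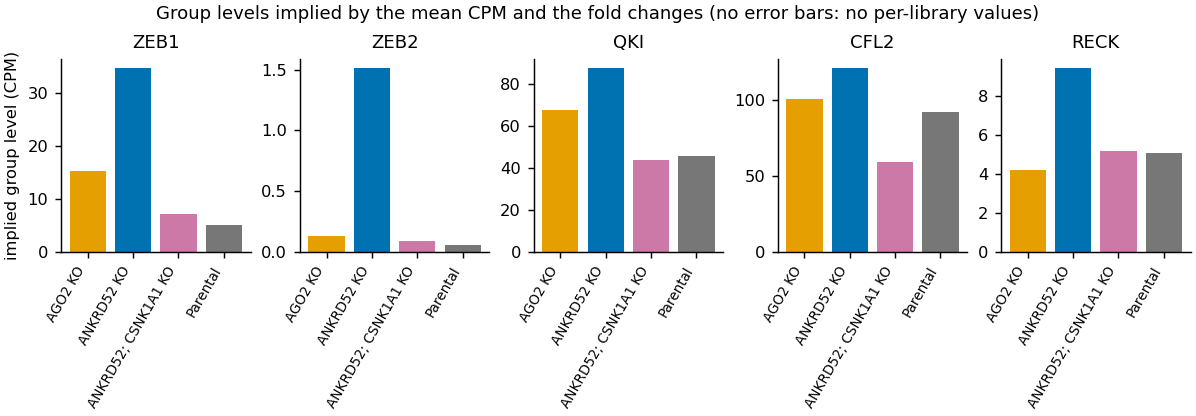
Implied level in CPM (y axis, from 0, its own scale per gene) of each target in the AGO2, ANKRD52 and double knockout and in the parental line. The ANKRD52 knockout has the tallest bar in all 5 panels, and for ZEB2 the other groups lie between 0.0536 and 0.129 CPM.

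A stricter reading of the authors' likelihood ratios, with an F distribution of 1 and 8 degrees of freedom in place of chi-square, ended the calls in both single knockouts. For the edgeR ratios of the ANKRD52 knockout it left 0 of 5 targets (5 of 5 at an unadjusted p under 0.05) and 3 of all 12756 genes. ZEB2 and QKI then had an adjusted p of 0.0504, ZEB1 0.0795, CFL2 0.0951 and RECK 0.131. For the edgeR ratios of the AGO2 knockout it left 0 targets (2 at an unadjusted p under 0.05) and 0 genes (1834 at an unadjusted p under 0.05), with 0.295 for ZEB1 and 0.259 for QKI. For the edgeR ratios of the double knockout the same F distribution left 3784 genes, and the fall of CFL2 kept its call (adjusted p = 0.00284).

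Every one of the 5 targets was lower in the double than in the ANKRD52 knockout. For ZEB2, listed through its level in the ANKRD52 knockout, that direction was set by the listing. The difference of the double from the ANKRD52 knockout was -2.29 on the log2 scale for ZEB1 (approximate standard error 0.53, approximate adjusted p = 0.000144) and -4.09 for ZEB2 (0.72, 2.54e-07). It was -1.01 for QKI (0.12, 2.61e-15), -1.04 for CFL2 (0.09, 7.39e-27) and -0.87 for RECK (0.26, 0.00354), with the same quantities in parentheses. By this measure 34.3% of all genes were called and 15.7% were called lower and 18.5% higher in the double knockout. These differences are taken between the authors' deposited fold changes, with a variance that treats the groups as equally variable. When both squared standard errors were summed instead, RECK lost its call (approximate adjusted p = 0.0830).

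Set against the AGO2 knockout, the ANKRD52 knockout was higher in 4 of the 5 targets, where 9.32% of all genes were called and 5.58% were higher and 3.75% lower. ZEB2 is 1 of the 4, and its listing through the ANKRD52 knockout set that direction. The difference was 3.56 for ZEB2 (approximate adjusted p = 3.02e-05), 1.18 for RECK (0.000379), 0.38 for QKI (0.0250) and 0.27 for CFL2 (0.0404) on the log2 scale. For ZEB1 it was 1.19 with an approximate 95% interval of 0.14 to 2.25, and it did not pass (approximate adjusted p = 0.148). With the summed variance 1 of these calls was left, that of ZEB2, and with a t distribution of 8 degrees of freedom 0 were left (4 at an unadjusted p under 0.05). The double knockout was lower than the AGO2 knockout in 2 of the 5, QKI at -0.63 (approximate adjusted p = 1.67e-06) and CFL2 at -0.77 (5.47e-15), where 42.3% of all genes were called.

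The order of the implied levels was therefore resolved to a different degree for each gene. ZEB1 ran from the ANKRD52 over the AGO2 and the double knockout to the parental line, and no neighbouring groups in that order passed a test, although the ANKRD52 knockout passed against the double knockout and the parental line, and the AGO2 knockout against the parental line. The same order held for ZEB2, and only its first step, from the ANKRD52 to the AGO2 knockout, passed. Because ZEB2 is listed through its level in the ANKRD52 knockout, the direction of that step was set by the listing. For QKI the steps from ANKRD52 to AGO2 knockout and from AGO2 knockout to the parental line passed, and the one from the parental line to the double knockout did not. For CFL2 the first and the last step of that same order passed. For RECK the ANKRD52 knockout was separated from the double knockout that followed it, and the double knockout, the parental line and the AGO2 knockout were not separated from each other.

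**Figure D4:**
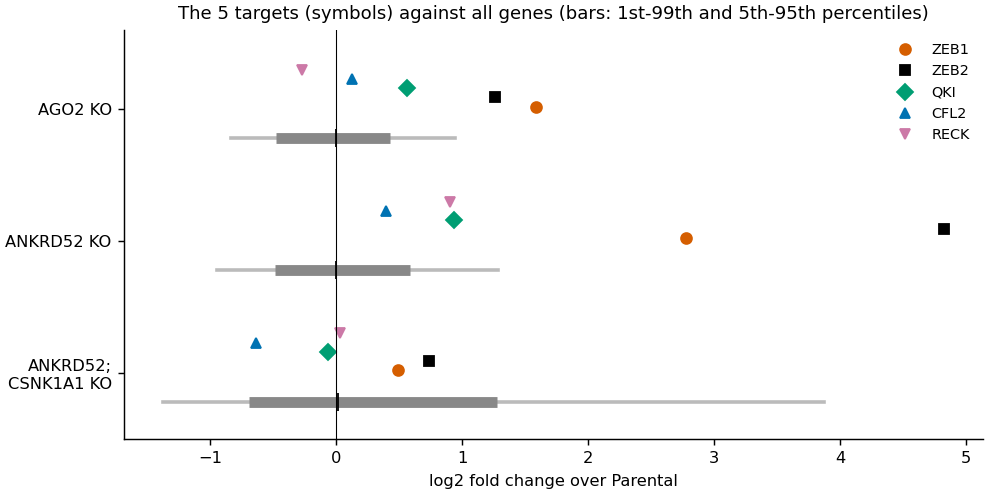
Log2 fold change over the parental line (x axis) of the 5 targets (symbols) in each knockout, above bars that span the 1st to 99th (thin) and 5th to 95th (thick) percentile of all 12756 genes. In the ANKRD52 knockout ZEB1 and ZEB2 lie beyond the 99th percentile of 1.28, and in the double knockout all 5 lie within the 5th to 95th percentiles, -0.70 to 1.28.

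Whether genes with miR-200 matches as a class stood where these targets did was described next, with no test. Of the 9596 genes without a miR-200b group match, 6.24% were called higher in the ANKRD52 knockout. That share was 12.7% of 1801 genes with 1 match, 18.0% of 440 with 2 and 28.0% of 125 with 3 or more. Without ZEB1, ZEB2, QKI and CFL2, which are in the last class, it was 25.6% of 121. The AGO2 knockout gave 2.83%, 4.94%, 7.95% and 16.8% over the same 4 classes, and the double knockout 21.6%, 29.7%, 29.5% and 42.4%. Shares called lower ran the other way in the ANKRD52 knockout, at 6.68%, 2.94%, 2.50% and 1.60%. Medians moved little, from -0.01 without a match to 0.17 with 3 or more on the log2 scale in the ANKRD52 knockout.

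Classes with more matches also had longer 3′ UTRs, with medians of 1147, 2790, 3972 and 6604 bases, and the part of length in these shares was not tested. miR-122, a microRNA known from liver, gives a comparison at a like length. The 1098 genes with a miR-122 match had a median 3′ UTR of 3000 bases, and the 2366 genes with a miR-200b group match one of 3098 bases. Called higher in the AGO2 knockout were 6.13% of genes with a miR-200b group match and 3.83% of those with a miR-122 match. In the ANKRD52 knockout the shares were 14.5% and 10.9%, and in the double knockout 30.3% and 26.5%. Genes with a miR-200a group match were at 5.06%, 11.5% and 28.2% in the 3 knockouts in that order. For miR-208, a microRNA known from heart muscle that was added as a comparison after the data were seen, the 241 genes with a match were at 4.15%, 11.2% and 29.9%.

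**Figure D5:**
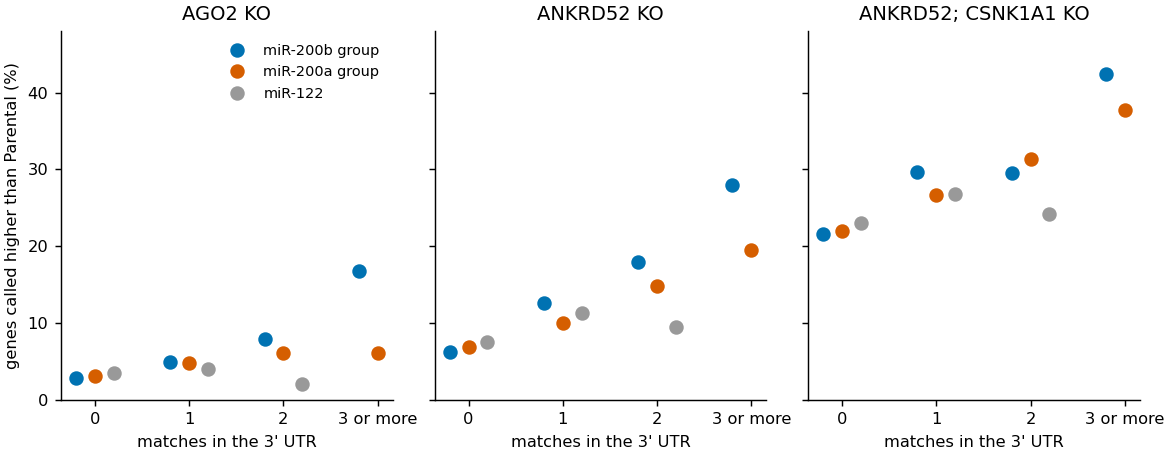
Percentage of genes called higher than the parental line (y axis, adjusted p under 0.05) by the number of seed matches in the longest 3′ UTR (x axis), for the miR-200b group (blue), the miR-200a group (orange) and miR-122 (grey), in each knockout; classes under 20 genes are not drawn. In the ANKRD52 knockout the miR-200b group share was 6.24% without a match and 28.0% with 3 or more, and the double knockout started from 21.6%.

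Of 54 other genes listed as miR-200 targets, 49 were measured. In the ANKRD52 knockout 16 of them rose and 2 fell, where 7.62% of all genes were called higher and 6.04% lower. The median log2 fold change of the list was 0.21, against 0.000507 over all genes. In the AGO2 knockout 2 rose, the vesicle coat protein SEC23A (0.39, adjusted p = 0.00963) and the membrane-cytoskeleton linker MSN (0.52, adjusted p = 0.00978), by the authors' deposited table. The median over the list was 0.01, and 3.38% of all genes were called higher in that knockout. SEC23A also rose in the ANKRD52 knockout (0.45, adjusted p = 0.000568) and was at -0.18 (adjusted p = 0.164) in the double knockout in the authors' deposited tables, and it holds 2 miR-200b group matches and 1 miR-200a group match. MSN, with 3 matches to the miR-200b group, stood at 0.48 (adjusted p = 0.00861) in the ANKRD52 and 0.83 (adjusted p = 4.40e-08) in the double knockout in the authors' deposited tables. The phosphatase PPM1F, which acts on cytoskeletal kinases and has 3 matches to both seeds together, rose by 0.50 in the ANKRD52 knockout and fell by 0.31 in the double knockout (adjusted p = 0.00267 and 0.0403) in the authors' deposited tables.

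Other listed targets with the smallest p in the ANKRD52 knockout were the phosphatase PTPN12 (0.75), RASSF2 (0.60), the phospholipase PLCG1 (0.43) and the engulfment adaptor ELMO2 (0.42) as log2 fold changes in the authors' deposited table. PTPN12 and RASSF2 had no match in the 3′ UTR used. In the double knockout, where 22.9% of all genes were called higher and 20.1% lower, 16 listed targets rose and 12 fell. NCAM1, 1 of the 16, is listed through its level there (7.74 CPM, against 0.70 CPM in the parental line) and so had to be higher. The listed targets had a median of 0.08 on the log2 scale. Those with the smallest p were the Notch coactivator MAML2 (3.398), RASSF2 (1.04), MARCKS (1.54), the receptor inhibitor ERRFI1 (-2.58), the Wnt effector TCF7L2 (-1.07) and PLCG1 (0.71) in the authors' deposited table. Of the 36 listed targets that hold a miR-200 match, 10 rose and 2 fell in the ANKRD52 knockout, and of the 13 without one 6 rose. Against the ANKRD52 knockout, 10 listed targets were higher and 16 lower in the double knockout, with a median difference of -0.11, where 18.5% of all genes were called higher and 15.7% lower. For NCAM1, higher in the double knockout, that direction was set by the listing.

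Epithelial genes that ZEB1 is known to repress were described as a group. Of 27 measured, 17 fell and 0 rose in the ANKRD52 knockout (21 and 1 at an unadjusted p under 0.05 in the authors' edgeR test), where 6.04% of all genes were called lower and 7.62% higher. The 27 had a median log2 fold change of -0.73. Those with the smallest p were the microtubule protein MAP7 (-1.005, adjusted p = 5.04e-08), the recycling GTPase RAB25 (-1.09, adjusted p = 3.79e-07) and the desmosome protein PKP3 (-0.94, adjusted p = 5.76e-07) in the authors' deposited table. In the AGO2 knockout 2 fell, the splicing factor ESRP1 (-0.55, adjusted p = 0.0275) and PKP3 (-0.47, adjusted p = 0.0474), by the authors' deposited table. The median over the list was -0.28, and 2.72% of all genes were called lower in that knockout. The tight junction gene MARVELD3 was at -0.61 there (adjusted p = 0.0820). In the double knockout 6 rose and 4 fell, with a median of 0.13, where 22.9% of all genes were called higher and 20.1% lower. Compared with the ANKRD52 knockout 22 were higher and 1 was lower, where 18.5% of all genes were called higher and 15.7% lower. The polarity scaffold INADL (1.18) and the keratin KRT18 (1.55) were higher and the claudin CLDN3 (-1.74) lower than in the parental line as log2 fold changes in the authors' deposited table. All 7 epithelial markers of the line were measured, with VIL1 at an implied 0.0485 CPM in the parental line, and CDH1, EPCAM and KRT18 are also on the list of 27. Of the 7, 2 fell in the ANKRD52 knockout, the adhesion genes CDH1 (-1.33, adjusted p = 0.0195) and EPCAM (-0.81, adjusted p = 0.000545) in the authors' deposited table, with a median over the markers of -0.27. The AGO2 knockout had 0 called by the authors' edgeR test (0 rose and 1 fell at an unadjusted p under 0.05). In the double knockout 6 of 7 rose. VIL1, 1 of the 6, is listed through its level there (2.92 CPM) and so had to be higher. The summed implied level of the 7 markers was 3421 CPM in the AGO2, 3182 CPM in the ANKRD52 and 8697 CPM in the double knockout, against 3316 CPM in the parental line. The keratin KRT8 was the largest part of each sum, at 1660, 1666 and 4412 CPM in the same order, against 1530 CPM in the parental line. The part of the 7 markers in the values of the list was not tested.

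None of 10 corepressor genes through which ZEB factors act was called in the AGO2 or the ANKRD52 knockout in the authors' edgeR test (2 and 0 at an unadjusted p under 0.05). Of all genes, 6.10% and 13.7% were called in these knockouts, so few calls among 10 genes lie near the background. In the double knockout 4 fell and 1 rose, among them the NuRD subunit MTA1 (-0.64, adjusted p = 7.65e-07), the deacetylase HDAC1 (-0.39, adjusted p = 0.000508) and RCOR1 (-0.25, adjusted p = 0.0218) by the authors' deposited table. Over all genes 22.9% were called higher and 20.1% lower in the double knockout. Among 17 measured transcription factors of the epithelial and mesenchymal programmes, 3 rose and 5 fell in the ANKRD52 knockout, where 7.62% of all genes were called higher and 6.04% lower. The epithelial regulators OVOL1 (-1.67, adjusted p = 0.000275), KLF4 (-0.67, adjusted p = 0.00113) and ELF3 (-1.10, adjusted p = 0.00210) had the smallest p there in the authors' deposited table. Not all epithelial factors were lower. The log2 fold changes of the 17 ran from -2.03 to 2.62 there, with 9 above 0. The factor at 2.62 had an implied 0.242 CPM in the parental line and 1.49 CPM in the ANKRD52 knockout. It is listed through its levels in the single knockouts, so a rise in at least 1 of them was set by the listing. KLF5 had an implied 167.9 CPM in the ANKRD52 knockout against 126.3 CPM in the parental line, and FOXA1 6.24 against 5.28 CPM. In the AGO2 knockout 1 of the 17 was called, SOX4 (-1.05, adjusted p = 0.0166), and TCF3 (-0.34, adjusted p = 0.0571) was not, in the authors' deposited table. Over all genes 6.10% were called in that knockout, with 3.38% higher and 2.72% lower. In the double knockout 7 rose and 0 fell (7 and 0 at an unadjusted p under 0.05), and by p the first were KLF5 (2.31), SOX9 (1.57) and FOXA1 (1.30) in the authors' deposited table. The mesenchymal factor SNAI2 (1.72, adjusted p = 4.26e-05) and the epithelial factor OVOL2 (1.37, adjusted p = 5.05e-05) also rose there in the authors' deposited table. SNAI2 was at an implied 0.635 CPM in the parental line, and only the ANKRD52 (1.73 CPM) and double (2.10 CPM) knockouts put it above 1 CPM. Its listing rests on those knockouts, so a rise in at least 1 of them was set by it. ZEB1-AS1, transcribed from the opposite strand beside ZEB1, did not pass in the AGO2 knockout (0.29, adjusted p = 0.397) or the ANKRD52 knockout (0.08, adjusted p = 0.850) and fell by 0.49 in the double knockout (adjusted p = 0.0365) in the authors' deposited tables. The kit marks strand, and whether counting used it is not given in the sources used here.

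Beside QKI, 13 splicing regulators were listed and measured. Of these 4 rose and 2 fell in the ANKRD52 knockout, including MBNL3 (0.69, adjusted p = 0.00124), the mesenchymal splicing factor RBFOX2 (0.57, adjusted p = 0.000798) and the epithelial factor ESRP1 (-0.92, adjusted p = 6.87e-06) in the authors' deposited table. In the AGO2 knockout RBM24 (0.58), MBNL3 (0.56) and ESRP1 were the 3 called, and in the double knockout 2 rose and 2 fell, with MBNL3 at 1.71, RBM47 at 1.15 and MBNL1 at -1.02 in the authors' deposited tables. ESRP1 is on the epithelial list too. Shares of all genes called were 7.62% higher and 6.04% lower in the ANKRD52 knockout and 22.9% and 20.1% in the double knockout. The AGO2 knockout had 6.10% called in either direction.

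Around CFL2, 21 genes of the cofilin and actin turnover pathway were measured. CAP2, an actin-monomer recycling protein, rose by 0.86 in the AGO2 knockout (adjusted p = 0.000282) and by 1.44 in the ANKRD52 knockout (adjusted p = 9.93e-13), and stood at 0.25 (adjusted p = 0.263) in the double knockout in the authors' deposited tables. LIMK1, which inactivates cofilin by phosphorylation, was called only in the AGO2 (0.49) and double (-0.32) knockouts, and the cofilin phosphatase SSH2 (0.45) rose in the ANKRD52 knockout in the authors' deposited tables. In all, 3 rose in each single knockout and 5 rose and 5 fell in the double knockout, with LIMK2 at 1.13 and PFN2 at -0.50 in the authors' deposited table. Over all genes 3.38% were called higher in the AGO2 and 7.62% in the ANKRD52 knockout. In the double knockout 22.9% were called higher and 20.1% lower.

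Of 11 measured genes of the RECK pathway, which includes its protease targets and the Wnt7 receptor complex it assembles, 0 were called in the AGO2 knockout by the authors' edgeR test (0 at an unadjusted p under 0.05). In the ANKRD52 knockout GPR124, the receptor that works with RECK in Wnt7 signalling, rose (0.53, adjusted p = 0.0410) and the ligand WNT7B fell (-0.97, adjusted p = 0.0119) in the authors' deposited table. The double knockout had 5 that rose and 2 that fell, with the protease inhibitor TIMP3 at 1.49, the coreceptors LRP6 at 0.56 and LRP5 at -0.68, and GPR124 at -0.74, all in the authors' deposited table. Over all genes 22.9% were called higher and 20.1% lower there, and 7.62% and 6.04% in the ANKRD52 knockout. In the AGO2 knockout 6.10% of all genes were called in either direction, so 0 of 11 lies near that share.

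Genes whose 3 log2 fold changes lay nearest to those of each target were found among the 11877 genes whose mean log2 CPM was 1 or more, by Euclidean distance over the 3 knockouts. They share the parental libraries with it, so nearness is a description. For ZEB1 these were SEMA3C (distance 0.94), IFIT2 (1.02) and SUSD2 (1.26), and for ZEB2 they were VIM (1.41), CLDN2 (1.45) and ZEB1 itself (2.08). QKI lay nearest to DICER1 (0.24), ARHGAP42 (0.24) and ATL3 (0.25), and RECK to SNED1 (0.11), CACNB2 (0.18) and KIAA0040 (0.20). Genes close to CFL2 included MDGA1 (0.11) and SYPL2 (0.12).

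Across the series, AGO2 RNA fell by 1.07 in the AGO2 knockout and CSNK1A1 by 2.42 in the double knockout, while ANKRD52 RNA was at 0.03 in its own knockout and at -0.65 in the double knockout and rose by 0.85 in the AGO2 knockout (adjusted p = 8.78e-07), as log2 fold changes in the authors' deposited tables. The RNA level therefore does not check the ANKRD52 label. Of markers of other cell types, the 1 fibroblast, 1 leukocyte and 1 endothelial gene measured (COL1A1, LYZ and VWF) had summed levels of at most 14.1, 8.63 and 2.53 CPM in any knockout. LYZ and VWF rose in the double knockout, but both are listed through their levels there and so had to be higher. The part of these 3 markers in the values of the 5 targets was not tested.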

How the data were processed

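The labels' protocols describe stranded libraries of polyadenylated RNA sequenced on a 75 cycle kit. Tools named in the submitters' processing notes, without roles, are TopHat2 2.0.12, featureCounts 1.4.6 and edgeR 3.8.6, with the build hg19. The authors deposited 3 edgeR tables, each setting 1 knockout against the parental line. These deposited tables hold a log2 fold change, a mean log2 CPM over all libraries, a likelihood ratio (a score), a p-value and a false discovery rate, per the file headers. In all 12756 genes the p-value was checked against the chi-square tail with 1 degree of freedom, and the rate against the Benjamini-Hochberg method. A gene was called at an adjusted p under 0.05.

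An approximate standard error was taken as the size of the log2 fold change divided by the root of its likelihood ratio. Knockouts were compared with each other through the difference of their log2 fold changes. The variance was the mean of both squared errors, the test normal, and the adjustment covered the 12751 or 12752 genes with a value. Implied levels solve for 4 equal groups from the deposited mean CPM and fold changes. 3′ UTRs came from GENCODE release 29, joined by symbol (11401 genes) or RefSeq synonym (561), with 794 genes left out. miR-124, planned as a control, was not run. The 5 genes, the gene lists and the rule for named genes (the genes of each list with the smallest p per knockout, the nearest genes and the targeted genes) were chosen with earlier results of these data known. Values of a named gene in the other knockouts, and VIL1, CDH1, EPCAM, SNAI2, OVOL2 and NCAM1, were added after the values were seen. Some genes that the rule names are not reported here. Python 3.11.15 was used with numpy 2.4.6, pandas 2.3.3, scipy 1.17.1 and, for plots, matplotlib 3.10.9.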

Additional observations from a re-analysis of the deposited data

How the results depend on the processing

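No paired analysis was possible because the tables hold no values per library, and for the same reason no replicate was left out and no count test was run. An adjusted p under 0.01 left 1 called target in the AGO2 knockout. The F distribution left 0 there and 0 in the ANKRD52 knockout by the authors' edgeR ratios (2 and 5 at an unadjusted p under 0.05). In the double knockout it left 1, CFL2. Between the ANKRD52 and AGO2 knockouts the summed variance left 1 and the t distribution 0 (4 at an unadjusted p under 0.05), and the cause was not tested beyond the wider errors these settings assume. Between the double and ANKRD52 knockouts the summed variance left 4 of 5. A floor of 1 on the mean log2 CPM removed ZEB2, which left 4 called targets in the ANKRD52 knockout, 4 between the double and ANKRD52 knockouts and 3 between the ANKRD52 and AGO2 knockouts. The share of genes with a miR-200b group match called higher was 9.30% (8-base match) and 5.06% (6-base match) in the AGO2 knockout, 19.1%, 11.5% and 16.04% (8-base, 6-base, shortest 3′ UTR) in the ANKRD52 knockout and 28.1% (6-base) in the double knockout. For the miR-200a group the 8-base match gave 6.72%, 15.7% and 31.0% in the 3 knockouts in that order, and the cause was not tested. Taking 2 reads off the mean, an offset edgeR adds by default and an alternative chosen after seeing the data, put ZEB2 at 0.111, 1.31 and 0.0770 CPM in the AGO2, ANKRD52 and double knockout and 0.0462 CPM in the parental line.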
